A study of Homo sapiens with 6 samples.

Results

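Long intergenic noncoding RNAs were taken as the genes whose symbol is LINC followed by digits and whose mean level reached 1 CPM (count per 1000000 gene counts of a library) over the WT or over the knockout libraries. Of 62348 identifiers in the count tables, 2275 carried a LINC symbol, 1001 of these had at least 1 count in some library, and 219 met the limit. Of the 219 members, 149 reached 1 CPM in both groups, 35 in WT alone and 35 in the knockout group alone. A member of either of the last 2 kinds was admitted by the group in which it was higher. Counts below are therefore set beside the same counts over the 16568 genes that met the same limit where these were made. Elsewhere, as in the fits that leave out a library, they are set beside all genes or all protein-coding genes tested. Those sets were not chosen by this limit, so such shares do not allow for how members were admitted. Just inside the limit lay LINC02210 (mean 1.002 CPM in WT, 0.81 CPM in the knockout group) and LINC00887 (1.04 and 0.374 CPM). Just outside lay LINC01431 (0.992 and 0.706 CPM) and LINC02606 (0.907 and 0.998 CPM).

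The libraries are poly(A)-selected RNA of HEK-293T, an established human embryonic kidney cell line. The 3 WT libraries came from cells given a non-targeting single guide RNA. The 3 libraries labelled C17orf80 knockout came from cells given a guide RNA against C17orf80 in a CRISPR/Cas9 procedure, with puromycin used to pick monoclonal cells. The number of clones, the position of the cut and whether replicates came from separate cultures are not given in the labels, so p-values cover only the spread between these 6 libraries, part of which may be technical. Differences between clones and between genotypes cannot be told apart here.

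Long intergenic noncoding RNAs are transcribed by RNA polymerase II from DNA between protein-coding genes, and many are capped, spliced and polyadenylated like mRNAs without encoding a known protein. Most are present at low level and in few cell types, many stay in the nucleus, and many are short-lived because the nuclear RNA exosome degrades them. Some act on genes of the same locus, some serve as hosts of microRNAs, snoRNAs or circular RNAs, and for most no function is known: the LINC symbol is a numbered placeholder given to such genes.

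C17orf80 itself, a mitochondrial nucleoid protein gene, was not lower in the labelled knockout group. Its level was 26.5, 27.7 and 30.0 CPM in WT replicates 1, 2 and 3 and 47.9, 43.7 and 43.3 CPM in the labelled knockout replicates (log2 fold change 0.78 ± 0.17 (SE), adjusted p = 0.0232, edgeR). The transcript count goes against a simple loss of the RNA, and it does not show whether the protein was lost, so the group is called the labelled knockout throughout. That call was lost when any 1 WT library or labelled knockout replicate 3 was left out, with adjusted p-values up to 0.127.

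Gene counts summed to 14982340 to 16278091 per library, so 1 count was worth about 0.0614 to 0.0667 CPM. Labelled knockout replicate 1 stood apart from the other 5 libraries: its TMM scaling factor was 0.851 against 1.03 to 1.04, and 15.9% of its reads fell in no gene against 8.75% to 10.8%. Over the members, its log2(CPM + 1) values correlated with those of labelled knockout replicates 2 and 3 at 0.874 and 0.901, against 0.963 to 0.970 for all other pairs within a group. It had 0 counts at 13 members, against 1 to 3 in every other library, and 11 members were at 0 there while present in all 5 other libraries. Of the 219 members, 40 (18.3%) were below 0.5 times the lowest other library in it, beside 17.9% of all genes of 1 CPM or more, and 6 (2.74%) were above 2 times the highest, beside 1.99%. Results are therefore also given without it. All 7 HEK-293T markers checked (VIM, KRT8, KRT18, PAX2, EYA1, NEFM, GATA3) had at least 1 CPM in every library. Of these EYA1, a kidney and ear development gene, was called lower (17.7, 21.3 and 22.1 CPM against 7.09, 6.01 and 8.44 CPM; -1.41, adjusted p = 0.0061, edgeR) in every fit that left out a library. The 3 blood markers had no count, and the endothelial markers and ALB of liver stayed at or below 0.189 and 0.252 CPM. The 3 fibroblast markers summed to 43.9 to 49.6 CPM in WT and 20.3 to 33.2 CPM in the labelled knockout. Most of it was COL1A1, at 41.7 to 48.2 CPM in WT and 15.4, 30.0 and 26.8 CPM in the labelled knockout. COL1A1 was called lower (log2 fold change -0.82, adjusted p = 0.035, edgeR). LUM, at 1.33 to 2.27 CPM in WT and 3.19 to 4.58 CPM in the labelled knockout, was called higher (1.26, adjusted p = 0.0455), both calls being made in 2 of the 6 fits that left out a library, and DCN was at 0 or at most 0.434 CPM. The part of these genes in the results was not tested.

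The start-site sequences of 6 members whose levels carry the results are shown: the 4 higher members LINC00667, LINC00839, LINC00665 and LINC01980, LINC01981 of the same locus as LINC01980, and LINC01273, which had no count in the labelled knockout. Each is the RefSeq window from 250 bases before to 50 bases after the annotated start (build GRCh38.p14), 5′ to 3′ on the gene's strand. Capitals mark CG dinucleotides, the sites of DNA methylation in mammals.
LINC00667 (chr18:5237850-5238149, plus strand, 38 CG): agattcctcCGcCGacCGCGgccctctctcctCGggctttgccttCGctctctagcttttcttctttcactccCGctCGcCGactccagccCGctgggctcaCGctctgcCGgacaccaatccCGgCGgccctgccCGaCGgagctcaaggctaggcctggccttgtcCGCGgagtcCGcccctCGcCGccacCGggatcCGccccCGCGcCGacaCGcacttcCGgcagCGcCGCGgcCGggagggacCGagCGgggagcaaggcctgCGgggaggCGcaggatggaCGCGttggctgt
LINC00839 (chr10:42475241-42475540, plus strand, 9 CG): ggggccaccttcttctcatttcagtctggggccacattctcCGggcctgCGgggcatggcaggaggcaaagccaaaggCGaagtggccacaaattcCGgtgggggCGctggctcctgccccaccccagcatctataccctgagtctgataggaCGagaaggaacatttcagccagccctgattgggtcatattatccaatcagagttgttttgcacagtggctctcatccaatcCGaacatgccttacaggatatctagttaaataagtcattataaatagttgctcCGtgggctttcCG
LINC00665 (chr19:36331669-36331968, minus strand, 12 CG): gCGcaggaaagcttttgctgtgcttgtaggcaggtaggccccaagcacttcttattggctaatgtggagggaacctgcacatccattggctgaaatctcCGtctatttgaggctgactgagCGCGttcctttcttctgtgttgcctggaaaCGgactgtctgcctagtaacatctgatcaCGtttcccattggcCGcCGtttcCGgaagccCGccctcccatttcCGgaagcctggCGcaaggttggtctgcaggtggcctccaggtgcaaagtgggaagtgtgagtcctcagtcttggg
LINC01980 (chr3:27797338-27797637, plus strand, 6 CG): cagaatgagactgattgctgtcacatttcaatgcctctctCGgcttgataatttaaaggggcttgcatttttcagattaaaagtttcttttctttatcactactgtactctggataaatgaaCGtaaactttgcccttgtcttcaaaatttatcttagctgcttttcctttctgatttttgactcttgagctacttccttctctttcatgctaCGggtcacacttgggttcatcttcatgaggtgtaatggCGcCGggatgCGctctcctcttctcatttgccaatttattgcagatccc
LINC01981 (chr3:27834087-27834386, minus strand, 0 CG): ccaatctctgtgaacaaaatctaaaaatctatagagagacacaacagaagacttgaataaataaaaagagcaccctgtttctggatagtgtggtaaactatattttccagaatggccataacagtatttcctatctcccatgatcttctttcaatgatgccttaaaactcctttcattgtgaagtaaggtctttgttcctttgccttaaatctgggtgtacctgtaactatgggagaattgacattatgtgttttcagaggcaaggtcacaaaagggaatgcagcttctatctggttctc
LINC01273 (chr20:50172320-50172619, plus strand, 19 CG): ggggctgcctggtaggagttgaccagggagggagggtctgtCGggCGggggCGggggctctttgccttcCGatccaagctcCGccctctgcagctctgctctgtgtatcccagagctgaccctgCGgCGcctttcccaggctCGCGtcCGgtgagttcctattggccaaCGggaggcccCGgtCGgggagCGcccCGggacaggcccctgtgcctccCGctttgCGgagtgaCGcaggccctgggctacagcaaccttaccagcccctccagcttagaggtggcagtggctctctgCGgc
The windows ran from 38 CG at LINC00667 to none at LINC01981. CCAAT, searched on both strands, was found in these 6 windows, in 46.5% of the 142 member windows and in 35.7% of all 27305 windows. By call, 70.6% of the 17 windows of higher members held it, 42.9% of the 7 of lower members and 43.1% of the 116 not called. These shares were not tested. The windows of the called members LINC00632, LINC01967, LINC02428, LINC02542, LINC02615, LINC01770, LINC01359, LINC02609 and LINC02043 lacked it. GGGCGG, likewise on both strands and able to overlap the counted CG, was found in those of LINC00667, LINC00665 and LINC01273, in 45.8% of member windows and in 44.6% of all windows. TATAAA was found at LINC00839, in 11.3% of member windows and in 11.95% of all windows.

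Together the members took 0.114%, 0.1196% and 0.119% of gene counts in WT and 0.130%, 0.144% and 0.144% in the labelled knockout. The ranges did not overlap; no test is given, since members were admitted on these levels. The median member had a mean of 2.53 CPM over the 6 libraries, 45 members reached 10 CPM in a group mean, and the 12 with the most reads held 32.8% of all member counts. Counts are not divided by transcript length, so the order by reads is not an order of molecules.

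**Figure D1:**
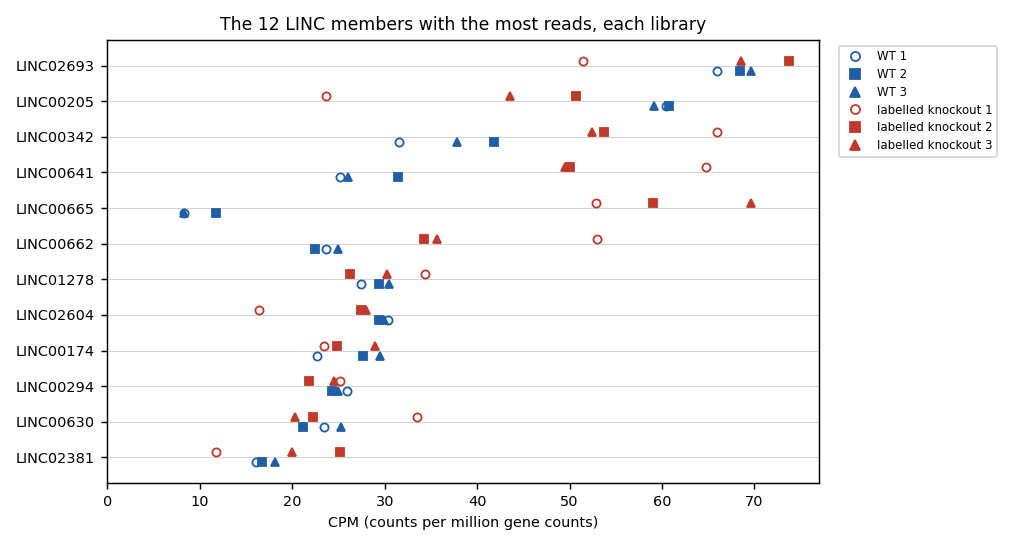
CPM of the 12 members with the most reads (rows) in each library, 1 point per library, WT in blue and labelled knockout in red. Only for LINC00641 and LINC00665 did edgeR call a difference; the open red circle is labelled knockout replicate 1, which lies away from the other 2 red points in several rows, such as LINC00205 at 23.6 CPM.

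Of these 12, LINC00665 showed the widest separation. It had 8.28, 11.8 and 8.32 CPM in WT and 52.8, 59.1 and 69.7 CPM in the labelled knockout, and the lowest labelled knockout library lay far above the highest WT library. Its log2 fold change was 2.76 ± 0.19 (SE; adjusted p = 0.000437, edgeR), and 2.77 without labelled knockout replicate 1. LINC00665 lies in a cluster of zinc finger genes on chromosome 19 (36313061 to 36331753, GRCh38.p14, minus strand), overlaps the annotated noncoding gene CYKILR, and its reads may be shared with it.

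LINC00641, which starts near the RNA-binding protein gene HNRNPC on chromosome 14, had 25.2, 31.4 and 26.0 CPM in WT and 64.7, 50.1 and 49.5 CPM in the labelled knockout. The groups did not overlap, and the log2 fold change was 1.11 ± 0.22 (SE; adjusted p = 0.0188, edgeR). When any 1 WT library was left out, the adjusted p rose to between 0.0719 and 0.103, so this call rests on all 3 of them.

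The other 10 of the 12 were not called. LINC00342 (31.5, 41.8 and 37.8 CPM against 66.0, 53.7 and 52.5 CPM) and LINC00662 (23.6, 22.5 and 24.96 CPM against 52.9, 34.2 and 35.7 CPM) were higher in each labelled knockout library than in any WT library, with log2 fold changes of 0.74 ± 0.21 and 0.91 ± 0.26 (SE) and an adjusted p of 0.0559 each (edgeR). LINC00205 was at 60.4, 60.8 and 59.2 CPM in WT and at 23.6, 50.7 and 43.5 CPM in the labelled knockout. Its groups did not overlap either, with the lowest value in replicate 1 (log2 fold change -0.55 ± 0.21 (SE), adjusted p = 0.121, edgeR). Without replicate 1 all 3 were called, at 0.52, 0.57 and -0.35. LINC02693, the member with the most reads, had 65.9, 68.4 and 69.6 CPM in WT and 51.5, 73.7 and 68.5 CPM in the labelled knockout, and its groups overlapped. LINC01278, LINC00174, LINC00294, LINC00630 and LINC02381 likewise overlapped, LINC02381 being called higher (0.42) without labelled knockout replicate 1, while LINC02604 was at 29.4 to 30.4 CPM in WT and at 16.4, 27.5 and 28.0 CPM in the labelled knockout.

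In the edgeR fit over all 17452 genes tested, 28 of the 217 members tested were higher in the labelled knockout and 10 were lower, at an adjusted p under 0.05. The higher members were 12.9% of those tested, beside 8.64% of all genes tested and 9.07% of genes of 1 CPM or more. The lower members were 4.61%, beside 6.5% and 6.84%. Called in either direction were 17.5% of members, beside 15.1% of all genes tested and 15.9% of those of 1 CPM or more, which is close to the background. The remaining 179 members were not called, and LINC00526 and LINC02870 were too low to be tested. The change was at least 2-fold for 27 of the higher and 9 of the lower members. The median log2 fold change was 0.058 over members and 0.0055 over all genes tested. Without regard to sign, the median was 0.715 over members and 0.446 over genes of 1 CPM or more.

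Without labelled knockout replicate 1, 55 of 219 members were higher (25.1%, beside 22.3% of all genes tested) and 38 were lower (17.4%, beside 21.7%). Either call was made for 44.0% of all genes in that fit. All 38 calls of the fit with 6 libraries were made there too. Without WT replicate 1, 2 or 3, 13, 13 and 12 members were higher (5.94%, 5.94% and 5.48%, beside 2.28%, 2.35% and 2.2% of all genes tested). Lower were 4, 3 and 3 members (1.83%, 1.37% and 1.37%, beside 1.35%, 1.34% and 1.33%). Without labelled knockout replicate 3, 19 were higher (8.76%, beside 4.29%) and 5 lower (2.30%, beside 2.19%). These shares were not computed without labelled knockout replicate 2. In that fit the calls of LINC02609, LINC02315, LINC02615, LINC00852 and LINC00896 were lost (adjusted p 0.0545 to 0.0869). The 14 members called in all 6 fits that leave out 1 library were LINC02506, LINC00667, LINC00632, LINC02154, LINC01981, LINC01980, LINC00839, LINC01963, LINC00665, LINC01399 and LINC01036, all higher, and LINC03046, LINC00958 and LINC03057, all lower. These 11 and 3 are 5.07% and 1.38% of the members tested, beside 2.07% and 1.26% of all genes.

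By levels alone, 59 members (26.9%) had every labelled knockout library above every WT library, beside 21.7% of all genes of 1 CPM or more. The reverse held for 56 members (25.6%), beside 27.8%; some order without overlap held for 49.5% of these genes. Members varied more within the labelled knockout than within WT, with a median SD of log2(CPM + 1) of 0.315 against 0.180. Of the 219 members, 156 had the larger SD in the labelled knockout. The same spread was not computed over all genes. Over genes of 1 CPM or more, labelled knockout replicate 1 likewise stood apart. Its log2(CPM + 1) values correlated with those of replicates 2 and 3 at 0.939 and 0.952, against 0.992 to 0.994 for other pairs within a group. Between labelled knockout replicates 2 and 3 the median SD was 0.158. That SD is of 2 libraries and is not comparable with those of 3.

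**Figure D2:**
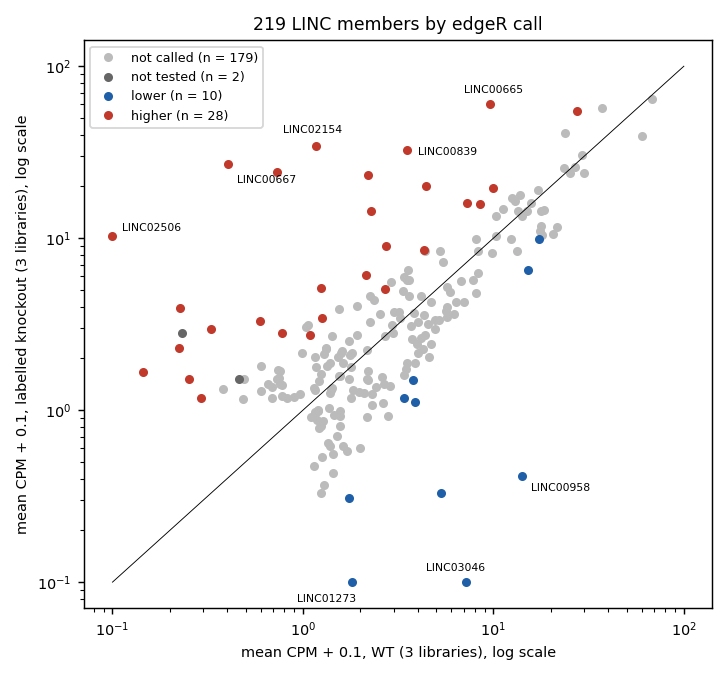
Mean CPM + 0.1 of each of the 219 members in WT (horizontal, log scale) and in the labelled knockout (vertical, log scale), means of 3 libraries, coloured by edgeR call; the line marks equal levels. The 28 higher members lie above the line and the 10 lower ones below it, with LINC02506 at the left edge and LINC03046 and LINC01273 at the bottom edge, where a group had no count.

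An on/off member was defined as at least 1 CPM in every library of one group and at most 0.1 CPM in every library of the other. LINC02506 was on in the labelled knockout, and LINC03046 and LINC01273 were off. These 3 are 1.37% of members, beside 0.465% of all genes of 1 CPM or more; on in the labelled knockout were 0.254% of those genes and off were 0.211%.

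LINC02506 spans 31997379 to 32155406 of chromosome 4 (GRCh38.p14), in a wide region without protein-coding genes. It had no count in any WT library and 154, 166 and 169 counts in the labelled knockout (9.66, 10.4 and 10.5 CPM, mean 10.2 ± 0.45 (SD, n = 3)). Set against a floor of 3 counts over the WT group, it was at least 159.9-fold higher. The 3 labelled knockout libraries lay close together, replicate 1 included, and the adjusted p was 0.000622 (edgeR).

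LINC03046 (chromosome 10, 101701977 to 101730142) was the reverse. Its 7.14, 6.39 and 7.69 CPM in WT stood against no count in any labelled knockout library. It was at least 113-fold lower against the floor of 3 counts over that group (adjusted p = 0.000986, edgeR). LINC01273 (chromosome 20, 50172570 to 50176671, plus strand) had 1.13, 2.52 and 1.45 CPM in WT and no count in the labelled knockout. It was at least 27.5-fold lower (adjusted p = 0.0101, edgeR), but its WT counts are few, and without WT replicate 2 or 3 the adjusted p was 0.0511 or 0.0532.

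Among members with counts in both groups, LINC00667 rose most. It had 0.534, 0.246 and 0.126 CPM in WT, 14 counts in all, and 20.1, 27.4 and 32.7 CPM in the labelled knockout (0.302 ± 0.21 against 26.7 ± 6.3, SD, n = 3). Every labelled knockout library was far above every WT library, with a log2 fold change of 6.52 ± 0.39 (SE; adjusted p = 0.000253, edgeR) and of 7.17 without WT replicate 1. LINC00667 (chromosome 18, 5238100 to 5246508, plus strand) starts in the CG-rich window shown above, and LINC00526 starts 0.071 kb away on the other strand. LINC00526 had 0.334, 0 and 0.063 CPM in WT and 0.251, 4.94 and 2.98 CPM in the labelled knockout. It was high in replicates 2 and 3 but not in replicate 1, and was called without that replicate, with a log2 fold change of 4.87.

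Both called members of chromosome X rose. LINC02154 (13266048 to 13303452) had 1.20, 0.921 and 1.07 CPM in WT and 33.8, 30.9 and 38.5 CPM in the labelled knockout, with little spread in either group (log2 fold change 5.10 ± 0.22 (SE), adjusted p = 0.000103, edgeR). LINC00632 (140709759 to 140791357), whose locus is known for the circular RNA CDR1-AS, had 0.334, 0.921 and 0.63 CPM in WT and 38.6, 14.2 and 19.9 CPM in the labelled knockout. All labelled knockout libraries were higher than WT, replicate 1 most of all. The log2 fold change was 5.39 ± 0.60 (SE; adjusted p = 0.00233, edgeR) and 4.74 without replicate 1. Counts per gene do not separate a circular RNA from its linear host, and poly(A) selection leaves most circles out.

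LINC00839 (chromosome 10, 42475491 to 42495337) had 3.40, 3.38 and 3.53 CPM in WT and 26.9, 35.1 and 35.4 CPM in the labelled knockout (3.44 ± 0.0808 against 32.5 ± 4.8, SD, n = 3). It separated the groups cleanly, with a log2 fold change of 3.32 ± 0.16 (SE; adjusted p = 0.00012, edgeR).

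Other large rises came from few counts in WT. LINC02428 on chromosome 4 had 0.133, 0 and 0 CPM in WT and 2.01, 0.876 and 1.80 CPM in the labelled knockout. With 2 counts in WT, the ratio of summed levels was 36.8, with a 95% counting interval of 9.83 to 309, which covers counting error only. Its adjusted p was 0.0138 (edgeR), and 0.0725 or 0.0732 without WT replicate 2 or 3. Its log2 fold change was 5.07 ± 0.92 (SE), and 7.72 without WT replicate 1, which holds both WT counts. LINC00645 on chromosome 14, which holds the microRNA gene MIR3171 inside its span, had 0.0667, 0.307 and 0 CPM in WT and 4.45, 0.939 and 1.24 CPM in the labelled knockout. Its size rested on single libraries: the log2 fold change was 4.22 ± 1.08 (SE; adjusted p = 0.0406, edgeR), 3.03 without labelled knockout replicate 1 and 5.93 without WT replicate 2. That call was lost when any 1 WT library or labelled knockout replicate 3 was left out (adjusted p up to 0.157).

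The falls were led, after the off members, by LINC00958. It had 15, 15.7 and 11.6 CPM in WT and 0, 0.563 and 0.372 CPM in the labelled knockout, so that a trace remained in 2 of the 3 libraries (log2 fold change -5.40 ± 0.58 (SE), adjusted p = 0.0021, edgeR; -6.07 without labelled knockout replicate 2). LINC03057, which lies 8.446 kb from the homeobox gene HOXB9 in the HOXB cluster, had 4.54, 5.41 and 5.74 CPM in WT and 0, 0.501 and 0.186 CPM in the labelled knockout. It fell by 4.40 ± 0.64 (SE) on the log2 scale (adjusted p = 0.0061, edgeR); its log2 fold change was -3.895 without labelled knockout replicate 1 and -5.58 without replicate 2. Both are among the 11 members at 0 counts in replicate 1 alone.

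LINC00888, a snoRNA host also named SNHG33, was lower by a steady amount. It had 16.5, 14.5 and 14.4 CPM in WT and 6.59, 6.38 and 6.39 CPM in the labelled knockout (15.1 ± 1.19 against 6.45 ± 0.116, SD, n = 3), with a log2 fold change of -1.13 ± 0.18 (SE; adjusted p = 0.00961, edgeR). When any 1 WT library was left out, the adjusted p was 0.0534 to 0.0663. LINC02609 had 19.96, 16.3 and 15.3 CPM in WT and 9.91, 10.2 and 9.37 CPM in the labelled knockout. It was the least changed of the lower members (log2 fold change -0.71 ± 0.19 (SE), adjusted p = 0.0461, edgeR), and its call remained without labelled knockout replicate 1 but in no other fit that left out a library (adjusted p 0.0819 to 0.193).

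The other lower members were at 1.45 to 4.36 CPM in WT. LINC01397 fell by 2.85 (adjusted p = 0.0218, edgeR; -3.88 without labelled knockout replicate 2), LINC02043 by 1.83 (0.0415), LINC01770 by 1.53 (0.0229) and LINC01359, which overlaps the kinase gene JAK1, by 1.32 (0.0281), all on the log2 scale. JAK1 had a log2 fold change of 0.25 ± 0.17 (SE) and was not called. All 4 calls were lost when any 1 WT library or labelled knockout replicate 3 was left out, with adjusted p-values between 0.0621 and 0.155.

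**Figure D3:**
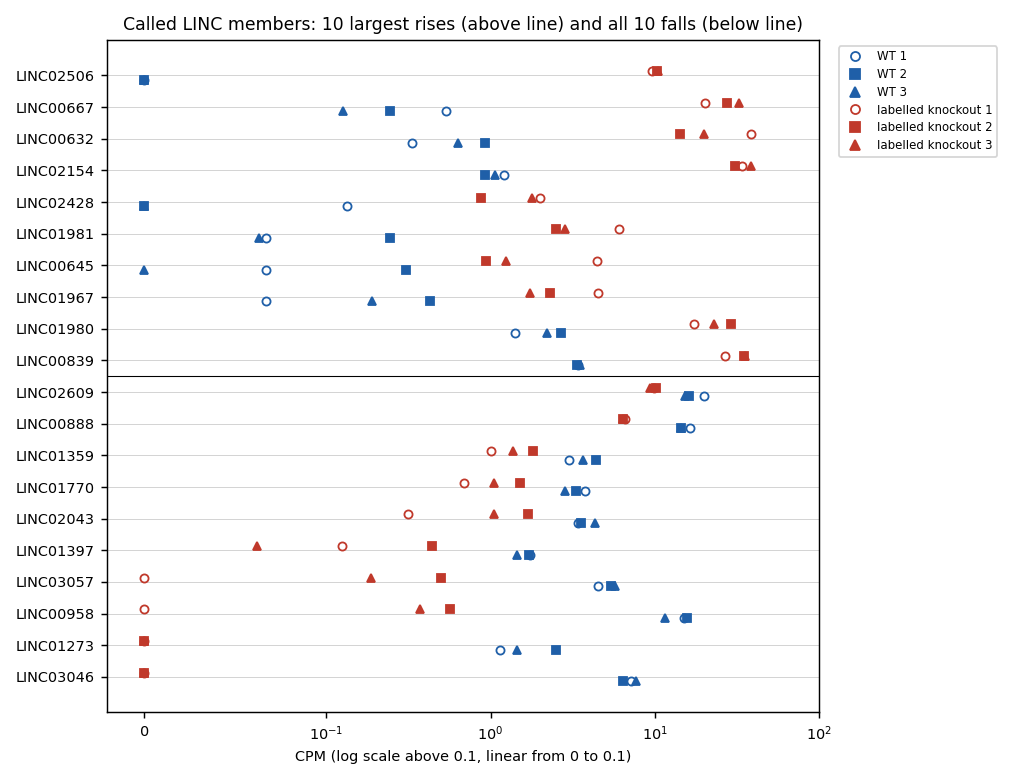
CPM in each library (log scale above 0.1, linear from 0 to 0.1) of the 10 members with the largest rise (above the line) and of all 10 lower members (below it), WT in blue and labelled knockout in red. In each row the colours do not overlap; LINC02506 is at 0 in WT, and LINC03046 and LINC01273 are at 0 in the labelled knockout.

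Positions in RefSeq (GRCh38.p14) were found for 213 members. On either strand, 120 members overlapped another annotated gene and 22 overlapped a protein-coding gene. Of the 38 called members, 20 overlapped another gene. Counting strand is not given, so reads may be shared where spans overlap. Nearest protein-coding genes were assigned by the smallest gap between annotated spans, with a median gap of 19.2 kb over all members and 26.3 kb over the called ones. Of 200 different neighbours, 151 were tested: 15 were higher (9.93%, beside 9.48% of protein-coding genes tested) and 9 were lower (5.96%, beside 7.46%). These shares were near the background.

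For 31 of the 38 called members the nearest protein-coding gene was itself tested. It was called the same way for 8 members, the opposite way for LINC02506, and not called for 22. EOMES counts here for both LINC01980 and LINC01981. Of 23 higher members 7 had a higher neighbour, and of 8 lower members 1 had a lower neighbour. That 1 was LINC02043, 4.398 kb from RFC4 (log2 fold change -0.85, adjusted p = 0.0272, edgeR). RFC4 was not called when any 1 WT library or labelled knockout replicate 3 was left out (adjusted p up to 0.125). A neighbour was called in either direction for 29.0% of called members and for 14.4% of uncalled ones (19 of 132), beside 16.9% of protein-coding genes. The shares of members can count a gene more than once, while the share of protein-coding genes counts each gene once. The pairs named next were picked for their calls, after the values were seen. Over 162 pairs with both genes tested, the log2 fold changes of member and neighbour had a Spearman rho of 0.338 and a Pearson r of 0.180, across genes that share the same 6 libraries.

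The EOMES locus on chromosome 3 held 3 of the higher members, the only such group among 23 pairs of members within 250 kb of each other. EOMES encodes a T-box transcription factor of early development and lymphocytes. LINC01980 (27797588 to 27860325, plus strand), 74.875 kb from EOMES, had 1.40, 2.70 and 2.21 CPM in WT and 17.3, 29.2 and 23.1 CPM in the labelled knockout (log2 fold change 3.53 ± 0.28 (SE), adjusted p = 0.00067, edgeR). LINC01981 lies inside that span on the other strand; it had 0.0667, 0.246 and 0.063 CPM in WT and 6.08, 2.50 and 2.85 CPM in the labelled knockout. Its log2 fold change was 4.97 ± 0.71 (SE; adjusted p = 0.00573, edgeR), with 4.32 without labelled knockout replicate 1 and 5.84 without WT replicate 2. Where the 2 overlap, reads cannot be told apart without strand.

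LINC01967, 146.871 kb from LINC01980, had 0.0667, 0.43 and 0.189 CPM in WT and 4.52, 2.32 and 1.74 CPM in the labelled knockout. It rose by 3.72 ± 0.70 (SE) on the log2 scale (adjusted p = 0.0157, edgeR), or 3.09 without labelled knockout replicate 1 and 4.51 without WT replicate 2, and was not called without WT replicate 1 or 3 (adjusted p 0.0752 and 0.0849). EOMES itself had 2.14, 2.52 and 2.02 CPM in WT and 11.2, 11.0 and 14.6 CPM in the labelled knockout (log2 fold change 2.55 ± 0.22 (SE), adjusted p = 0.00091, edgeR). All 4 genes of the locus were thus higher in every labelled knockout library than in any WT library. CMC1, a cytochrome c oxidase assembly gene and the nearest gene of LINC01967, was not called (0.30 ± 0.22, SE) but was called higher without labelled knockout replicate 1 (0.49, adjusted p = 0.00216).

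LINC01036 and PLA2G4A on chromosome 1 rose by like amounts. LINC01036 had 3.2, 4.85 and 4.92 CPM in WT and 20.4, 21.1 and 18.9 CPM in the labelled knockout, with a log2 fold change of 2.32 ± 0.23 (SE; adjusted p = 0.00151, edgeR). PLA2G4A, the cytosolic phospholipase A2 that releases arachidonic acid, lies 103.861 kb away. It had 8.41, 7.99 and 8.13 CPM in WT and 31.6, 32.9 and 41.1 CPM in the labelled knockout (2.19 ± 0.16 (SE), adjusted p = 0.000457, edgeR). Both calls remained in all 6 fits that left out a library.

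On chromosome 14, LINC00648 (6.74, 8.17 and 6.56 CPM against 15.1, 14.5 and 18.2 CPM) rose by 1.24 on the log2 scale (adjusted p = 0.0075, edgeR). Its neighbour MDGA2, a neuronal cell adhesion gene at 89.348 kb, had 2.2, 1.35 and 1.51 CPM against 4.01, 5.07 and 4.65 CPM and rose by 1.52 (adjusted p = 0.0142). Neither pair of groups overlapped. Without WT replicate 1 or 3 LINC00648 was not called (adjusted p 0.0587 and 0.0596), nor was MDGA2 without WT replicate 2 or 3 (0.0804 and 0.0844).

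Also on chromosome 14, LRFN5, a synaptic adhesion gene, had no count in WT and 15.6, 11.5 and 10.4 CPM in the labelled knockout (adjusted p = 0.00141, edgeR). LINC02315, 465.828 kb away, rose by 1.03 (2.34, 2.27 and 3.21 CPM against 5.33, 4.94 and 4.59 CPM, adjusted p = 0.0441). The call of LINC02315 was made without labelled knockout replicate 1 and in no other fit that left out a library (adjusted p up to 0.177). On chromosome 3, LINC02019 rose by 2.52 from 0.2, 0.246 and 0.126 CPM to 0.627, 1.13 and 1.49 CPM (adjusted p = 0.0195, edgeR). DOCK3, a guanine nucleotide exchange factor gene 2.876 kb from it, rose by 1.14 (27.3, 27.9 and 27.5 CPM against 63.1, 52.0 and 53.7 CPM, adjusted p = 0.00945). When any 1 WT library was left out, neither was called (adjusted p 0.0617 to 0.109), and LINC02019 was also lost without labelled knockout replicate 3.

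LINC01535 lies among KRAB zinc finger genes on chromosome 19, which encode DNA-binding repressors. It had 8.48, 8.72 and 7.94 CPM in WT and 10.7, 18.5 and 17.8 CPM in the labelled knockout (log2 fold change 0.97 ± 0.20 (SE), adjusted p = 0.0194, edgeR). ZNF383, 3.145 kb from it, rose by 1.04 (7.28, 6.45 and 7.0 CPM against 14.6, 11.8 and 13.1 CPM, adjusted p = 0.0206). ZNF585A, ZNF585B and ZNF875, all within 100 kb, rose by 1.68, 1.12 and 0.84. LINC01535 and ZNF383 were not called when any 1 WT library or labelled knockout replicate 3 was left out (adjusted p 0.058 to 0.111). When any 1 WT library was left out, ZNF585A, ZNF585B and ZNF875 were not called either (0.0703 to 0.151). ZNF585B and ZNF875 were also not called without labelled knockout replicate 3 (0.0614 and 0.0826).

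Of the zinc finger genes around LINC00665, also on chromosome 19, a near and a farther one differed. ZFP14, 2.7 kb away, had 7.88, 10.6 and 9.71 CPM in WT and 18.9, 13.1 and 12.3 CPM in the labelled knockout so that every labelled knockout library was above every WT library. It was not called (0.77 ± 0.28 (SE), adjusted p = 0.105, edgeR) but was called higher without replicate 1 (0.44, adjusted p = 0.03). ZFP82, 51.367 kb away, had 6.34, 5.84 and 5.48 CPM in WT and 0, 0.125 and 0 CPM in the labelled knockout. It fell by 6.82 ± 0.63 (SE) on the log2 scale (adjusted p = 0.00108, edgeR), a call made in all 6 fits that left out a library, with a value of -9.49 without labelled knockout replicate 2, the only labelled knockout library with a count. ZNF565 and ZNF146, also within 100 kb, were not called (log2 fold change 0.038 and 0.24). A noncoding RNA that rose thus lay 51.367 kb from a protein-coding gene that was nearly lost, while the other genes tested in that window were not called.

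PCDH7, a protocadherin gene, was the nearest protein-coding gene of the on member LINC02506, at 850.579 kb. It had 92.3, 81.6 and 86.7 CPM in WT and 42.3, 31.9 and 35.4 CPM in the labelled knockout, and fell by 1.14 ± 0.20 (SE) on the log2 scale (adjusted p = 0.0134, edgeR). When any 1 WT library or labelled knockout replicate 3 was left out, it was not called (adjusted p up to 0.0742). The nearest genes of both off members were not called: FBXW4, an F-box gene 6.682 kb from LINC03046, was at 0.18 ± 0.26, and CEBPB, a basic leucine zipper transcription factor gene 13.912 kb from LINC01273, at -0.34 ± 0.34 (log2 fold change, SE). Without labelled knockout replicate 1, FBXW4 was called higher (0.44, adjusted p = 0.00193), opposite to LINC03046, and CEBPB was not called (-0.019).

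HOXB9 beside LINC03057 was likewise not called (-0.16 ± 0.14, SE). TEAD1, a transcription factor gene of the Hippo pathway 34.797 kb from LINC00958, had 106, 107 and 101 CPM in WT and 214, 116 and 121 CPM in the labelled knockout and was not called (0.66 ± 0.31, SE), replicate 1 being high. RASSF10 beside LINC00958 and ATXN3L beside LINC02154 had no count in any library. SOX3 beside LINC00632 and AKAIN1 beside LINC00667 were too low to be tested, and ZBTB14, 42.514 kb from LINC00667, was not called (0.43 ± 0.23, SE). ZNF33B beside LINC00839 was not called at 0.28 ± 0.19 (SE). Without labelled knockout replicate 1, ZBTB14 (0.51, adjusted p = 0.0298) and TEAD1 (0.19, adjusted p = 0.0327) were called higher, while HOXB9 and ZNF33B were not called.

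**Figure D4:**
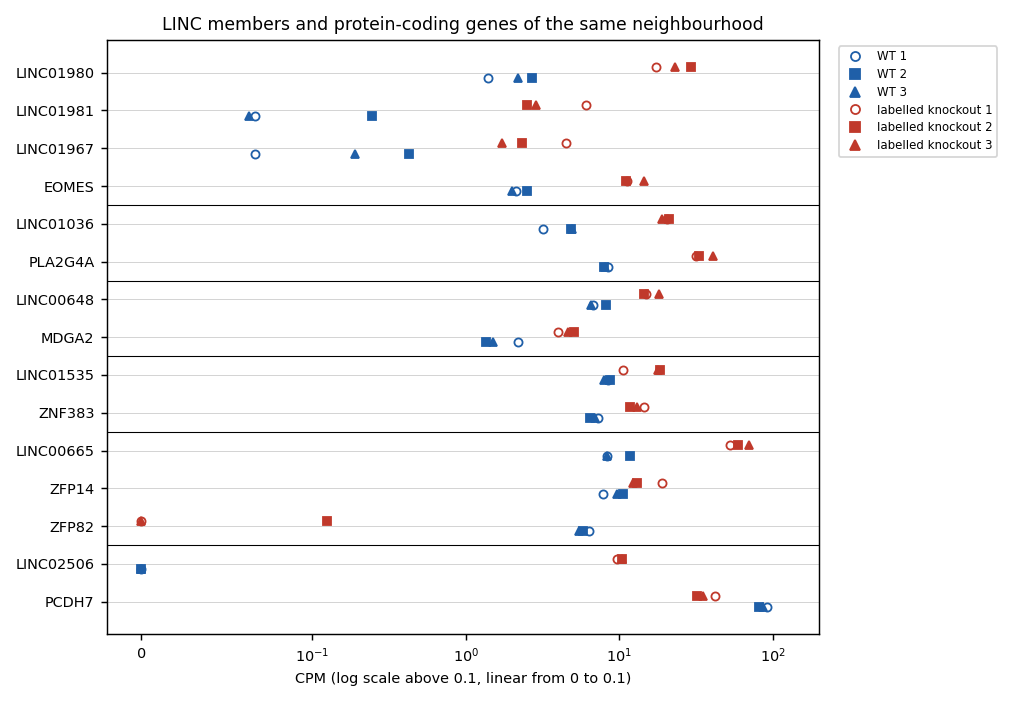
CPM in each library (log scale above 0.1, linear from 0 to 0.1) of members and protein-coding genes of 6 loci, separated by lines; WT in blue, labelled knockout in red. In the 4 upper loci members and genes are higher in red. ZFP82 and PCDH7 are lower in red, 51.367 and 850.579 kb from LINC00665 and LINC02506, which are higher.

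Within 100 kb of called members 77 protein-coding genes were tested, of which 10 (13.0%) were higher and 11 (14.3%) were lower, beside 9.48% and 7.46% of protein-coding genes. Of the 27 called members with such a gene, 10 had at least 1 with the same call. A member can have several such genes, and no such count was made for uncalled members. The count therefore has no background, and the shares per gene cannot serve as one. LINC00665 (ZFP82), LINC00896 (CCDC188) and LINC01399 (TOM1) had 1 with the opposite call. Of the 11 lower genes, 6 lay around LINC01770 on chromosome 1: VWA1, MXRA8, DVL1, CCNL2, ATAD3B and ATAD3C. LOC107985729, the nearest annotated protein-coding gene of LINC01770, overlaps it and was not matched to a counted gene. LINC01770 had 3.74, 3.32 and 2.84 CPM in WT and 0.69, 1.5 and 1.05 CPM in the labelled knockout. VWA1, an extracellular matrix gene 1.117 kb from it, had 51.4, 43.7 and 50.6 CPM in WT and 6.52, 24.5 and 18.6 CPM in the labelled knockout, with replicate 1 lowest for both (VWA1 log2 fold change -1.51 ± 0.37 (SE), adjusted p = 0.0348, edgeR; -1.17 without replicate 1). When WT replicate 2 or 3 or labelled knockout replicate 3 was left out, none of these 6 genes was called (adjusted p 0.0572 to 0.125).

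Beside some uncalled members a protein-coding gene changed; the pairs given here were chosen after their values were seen. LINC00630 on chromosome X was not called, while BEX1, a small brain-expressed X-linked gene 98.128 kb away, had no count in WT and 11.2, 44.0 and 32.9 CPM in the labelled knockout (adjusted p = 0.00328, edgeR). Nearer genes were not called: RAB40AL and ARMCX5-GPRASP2, which overlap LINC00630, and GPRASP2 at 51.42 kb. GPRASP3, at 15.613 kb, was too low to be tested. POFUT2, an O-fucosyltransferase gene that starts 0.157 kb from LINC00205 on the other strand, fell by 1.21 ± 0.31 (SE; 50.5, 55.9 and 50.2 CPM against 9.79, 27.7 and 28.0 CPM, adjusted p = 0.0416), and by 0.90 without replicate 1. It was called in no other fit that left out a library (adjusted p 0.0501 to 0.144).

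Start-site windows were matched for 142 members by symbol. Their median CG count was 13, beside 14 over all 27305 windows, 22 for protein-coding genes and 5 for long noncoding RNA genes. By call, the medians were 4 for 17 higher members, 15 for 7 lower members and 13.5 for 116 members that were not called. Windows with 20 or more CG were 11.8% of those of higher members, 14.3% of those of lower members and 42.2% of those of members not called. LINC00667, with 38 CG, was the exception among the higher members shown above, whose other windows had 12 or fewer. These are descriptions with no test, and 11 of the 28 higher members had no window.

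**Figure D5:**
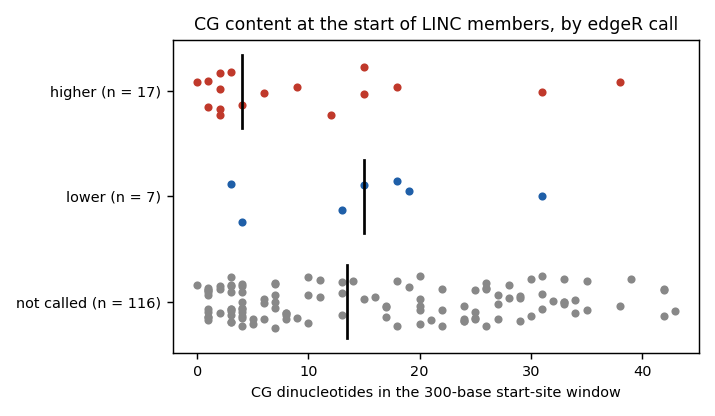
Number of CG dinucleotides in the 300-base start-site window of each matched member, by edgeR call; each point is 1 member and the vertical bar is the median. The medians are 4 for higher, 15 for lower and 13.5 for members not called, and the groups overlap widely.

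Other long noncoding RNAs, a list of 52 genes named for function or location, gave 42 that were tested. Of these 2 were higher and 1 was lower, beside 8.64% and 6.5% of all genes. The median log2 fold change was -0.32, and -0.16 without labelled knockout replicate 1, beside 0.0055 and 0.0062 over all genes tested. NEAT1, the scaffold of nuclear paraspeckles, had 197, 233 and 206 CPM in WT and 243, 310 and 310.4 CPM in the labelled knockout and rose by 0.53 ± 0.13 (SE; adjusted p = 0.0344, edgeR). SNHG16, a snoRNA host, rose by 0.85 ± 0.13 (adjusted p = 0.00623), and MIAT, a nuclear RNA of neurons, fell by 2.76 ± 0.69 (adjusted p = 0.0387) from 1.35 to 1.74 CPM to at most 0.372 CPM. None of the 3 was called when any 1 WT library was left out (adjusted p 0.0521 to 0.192). NEAT1 and MIAT were also not called without labelled knockout replicate 2 (0.0568 and 0.0717) or 3 (0.102 and 0.0693). Without labelled knockout replicate 1, 6 of 42 were higher and 13 lower, beside 22.3% and 21.7% of all genes.

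The nuclear RNA turnover genes, which encode the exosome, its targeting complexes, the cap-binding complex and Integrator, gave 5 higher and 3 lower of 42, beside 8.64% and 6.5% of all genes, with a median log2 fold change of 0.0031. The exosome ring subunit genes EXOSC9 and EXOSC6 (named after its value was seen) were higher (0.79 and 0.59) and EXOSC8 lower (-0.55). Of Integrator, which cleaves nascent noncoding RNAs, INTS12, INTS7 and INTS2 were higher (1.012, 0.78 and 0.77), while INTS11, its endonuclease, was lower (-1.03). NCBP2, the small cap-binding subunit, was also lower (-0.70). No member of this list was called when any 1 WT library or labelled knockout replicate 3 was left out. EXOSC6 and EXOSC8 were also not called without labelled knockout replicate 2. Without replicate 1, 8 were higher and 12 lower, beside 22.3% and 21.7% of all genes.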

How the data were processed

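RNA-seq read counts per gene were deposited by the authors as 1 table per library, in whole numbers; per the submitters' processing notes, HISAT2 2.2.1, HTSeq 0.12.4 and GRCh38 were used. Counting strand and annotation release are not given in the sources used here. Rows that name no gene were left out. CPM was computed on summed gene counts. Symbols came from the supplied gene-name table (61399 of 61552 Ensembl identifiers), and positions and start windows from RefSeq (GRCh38.p14; 7 members by an earlier name). The per-base mitochondrial coverage was not used here.

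Groups were compared with edgeR 4.0.16 (R 4.3.3; TMM, default low-count filter, quasi-likelihood test, group as the only term) over all genes, with Benjamini-Hochberg adjustment at 0.05. The fit was tested on simulated counts. DESeq2 1.42.0, limma-voom (limma 3.58.1), other scalings, no filter, a replicate block and leaving out each library were alternatives. Same-numbered WT and labelled knockout libraries did not deviate together (r from -0.058 to 0.0022). No 2 libraries agreed within sampling noise.

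Named were the 12 members with the most reads, on/off members, the 10 largest called changes in each direction, their nearest protein-coding genes and the called list genes with the largest changes (up to 4 a direction); exceptions are marked. The members and lists were chosen with earlier results of these data known.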

Additional observations from a re-analysis of the deposited data

How the results depend on the processing

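Under DESeq2, limma-voom, RLE factors, library size only and no filter, higher members numbered 25 to 38 and lower members 9 to 13. Leaving out 1 library gave 12 to 55 higher and 3 to 38 lower members, 401 to 4048 higher and 243 to 3927 lower genes of all tested, 6 to 42 higher and 1 to 30 lower neighbours, 0 to 6 higher and 0 to 13 lower other long noncoding RNAs, 0 to 8 higher and 0 to 12 lower turnover genes, 3 to 25 called members with a neighbour called the same way, and 3 to 4 on/off members (LINC01981 joined without WT replicate 2). In each range the high end came without labelled knockout replicate 1, except for on/off members. Other long noncoding RNAs called lower numbered 3 with DESeq2, 2 with library size only and 3 with no filter; same-way neighbours numbered 5 with library size only. With a replicate block, whose numbers do not pair the libraries, there were 16 higher and 5 lower members, 610 and 359 of all genes, 7 and 3 neighbours, 1 and 0 other long noncoding RNAs, 0 and 0 turnover genes, and 3 same-way neighbours. Small log2 fold changes of 5 uncalled members changed sign: LINC02693 (-0.0045 with DESeq2, -0.074 with library size only, -0.036 with no filter, -0.050 to 0.070 leaving out 1 library), LINC00174 (-0.047 with library size only, -0.0014 with no filter, -0.068 to 0.12 leaving out 1 library), LINC00294 (-0.071, -0.017 and -0.11 to 0.14 in the same order), and, leaving out 1 library, LINC01278 (-0.036 to 0.31) and LINC00630 (-0.12 to 0.43). The cause was not tested. Members numbered 309 at a limit of 0.5 CPM, 147 at 2 CPM and 221 with TMM library sizes. Low counts limit the members near 1 CPM, where a library holds about 16 reads of a gene.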
